A study of Mus musculus with 6 samples.

Results

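The 10 genes described here encode building blocks of the synaptonemal complex, the HORMA domain proteins of the meiotic chromosome axis, and the ATPase that removes the latter. They are Sycp1, Sycp2, Sycp3, Syce1, Syce2, Syce3, Tex12, Hormad1, Hormad2 and Trip13, the ATPase gene. They were found by their symbols in a table of 29333 genes, and all 10 were present and passed the filter on low values, which kept 17480 genes. The table came from RNA sequencing of whole testes of mice at postnatal day 16. The knockout group was labelled Hsf5-/-. The control group was labelled wild type, although by the series' design text Hsf5+/- animals could be among the controls. The labels list 6 samples, 3 per group. Control 1, control 2, knockout 1 and knockout 3 were analysed, so n = 2 per group throughout, and the other 2 were not analysed here. The sources used here give neither the strain, nor how the allele was made, nor how many animals a sample held. The spread behind each p-value is therefore that between samples and may be technical.

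The synaptonemal complex is the protein zipper that holds homologous chromosomes together during meiotic prophase. SYCP2 and SYCP3 form the lateral elements along each chromosome axis, SYCP1 filaments span the gap between the axes, and SYCE1, SYCE2, SYCE3, TEX12 and SIX6OS1 build the central element where the filaments meet. HORMAD1 and HORMAD2 coat axes that have not yet synapsed, and the ATPase TRIP13 strips them off once the zipper closes. In mouse testis these genes are switched on in early meiotic prophase, and the complex is complete at the pachytene stage, which the leading germ cells have reached at this age.

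The libraries held between 16209093 reads (knockout 3) and 18557898 reads (control 2). Values below are normalised read counts, that is reads divided by the authors' size factor for the library. Hsf5 itself stood at 2541 and 3147 in controls 1 and 2, and at 1926 and 1602 in knockouts 1 and 3. By limma its level fell by 0.69 on the log2 scale (SE 0.12, Benjamini-Hochberg adjusted p = 0.00716), a call lost without control 2 or knockout 3 (adjusted p = 0.108 and 0.0720). Counts per gene cannot tell which exons the remaining reads came from. Across all genes tested, the Spearman correlation with knockout 1 was 0.973 for control 1 and 0.947 for control 2. A gene is described as having fallen or risen where the limma Benjamini-Hochberg adjusted p over all 17480 genes was under 0.05. By that rule 13.5% of all genes fell and 3.28% rose. In whole testis, fewer cells of a type and less RNA per cell cannot be told apart.

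Of the 10 genes, 3 fell: Syce1, to 52.4% of its control mean, Hormad1, to 74.4%, and Tex12, to 74.5%. None rose by limma, at an adjusted or an unadjusted p under 0.05. On whole reads recovered from the values, edgeR called 3 lower and 0 higher (12.3% and 2.96% of all genes), and DESeq2 called 4 lower and 0 higher (11.3% and 2.26%). The median log2 fold change of the 10 was -0.17, against 0.01 over all genes tested, and the values lay between -0.92 and 0.22. The knockout libraries lay below both controls in 5 of the 10 genes and above both in 1, against 31.9% and 29.8% of all genes tested. The call of Syce1 held without each library in turn (log2 fold change -1.15 to -0.69), though such fits leave 1 library in a group. That of Hormad1 was lost without control 1, without control 2 and without knockout 3 (limma Benjamini-Hochberg adjusted p = 0.0796, 0.141 and 0.0946). That of Tex12 was lost without control 2 and without either knockout (for control 2, knockout 1 and knockout 3, adjusted p = 0.125, 0.0865 and 0.151). The authors' deposited values nearly equal those of the DESeq2 run above and so are not separate support. There Syce1, Hormad1 and Tex12 were lower (DESeq2 adjusted p = 2.88e-08, 0.000384 and 0.0176), and also Sycp2 (adjusted p = 0.0337). Of the genes with an adjusted p there, 11.3% were lower and 2.26% higher.

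**Figure D1:**
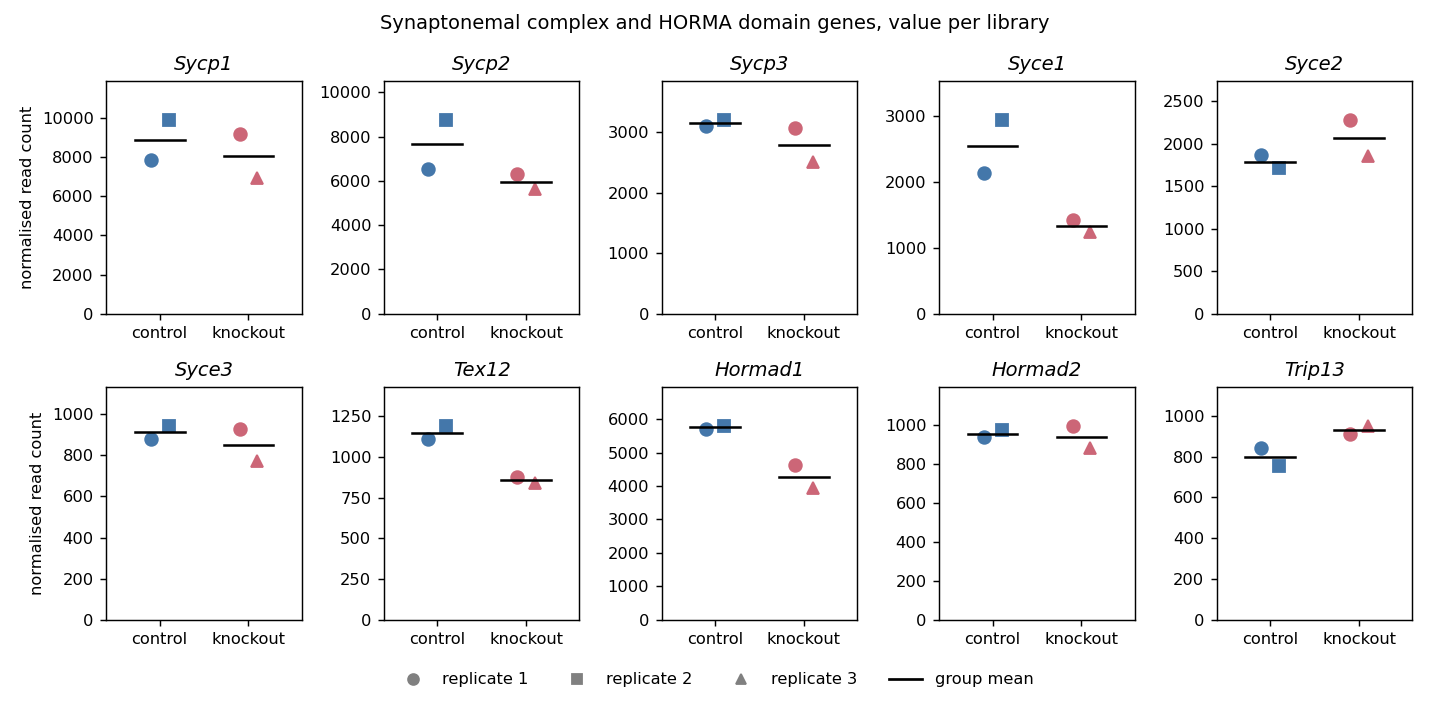
Normalised read count of each of the 10 genes in the 4 libraries. The horizontal axis gives the group, point shapes give the replicate number and black bars are group means. Syce1, Tex12, Hormad1, Sycp2 and Sycp3 have both knockout libraries below both controls, and Trip13 has both above.

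The promoters of the 3 genes that fell are shown because those genes moved in the same direction. Hsf5, the gene named in the knockout label, encodes a heat shock factor family member, and whether HSF5 acts on these promoters was not tested. Each is the 250 bases before the RefSeq start in GRCm38.p6, 5′ to 3′ on the gene's strand, and capitals mark letters that match a motif searched. The deposited values were made on another build, mm39, and hold no gene coordinates.

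Syce1 (chr7:140787855-140788104, minus strand): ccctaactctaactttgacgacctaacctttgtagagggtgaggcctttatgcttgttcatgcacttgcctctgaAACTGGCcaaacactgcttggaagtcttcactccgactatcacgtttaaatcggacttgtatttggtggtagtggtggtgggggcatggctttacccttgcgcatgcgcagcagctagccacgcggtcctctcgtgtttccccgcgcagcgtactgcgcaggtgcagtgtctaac

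Tex12 (chr9:50561269-50561518, minus strand): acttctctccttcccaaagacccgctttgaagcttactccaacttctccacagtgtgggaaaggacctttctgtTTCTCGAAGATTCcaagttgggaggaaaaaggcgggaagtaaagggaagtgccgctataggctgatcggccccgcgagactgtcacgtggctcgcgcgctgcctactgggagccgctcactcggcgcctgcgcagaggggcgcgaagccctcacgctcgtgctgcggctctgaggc

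Hormad1 (chr3:95559427-95559676, plus strand): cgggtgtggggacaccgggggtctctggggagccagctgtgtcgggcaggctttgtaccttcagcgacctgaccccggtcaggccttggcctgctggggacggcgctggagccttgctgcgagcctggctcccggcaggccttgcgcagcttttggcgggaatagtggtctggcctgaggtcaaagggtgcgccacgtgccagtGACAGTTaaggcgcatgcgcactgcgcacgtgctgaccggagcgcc

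In Tex12 the capitals mark overlapping matches to TTCNNGAA and GAANNTTC, the inverted repeats of the heat shock element, 176 and 171 bases before the start. They share the letters GAA and so join into a run of 3 alternating units, which was looked for after the overlap was seen. Of 32851 promoter windows of the same length, 7.17% hold TTCNNGAA, 6.69% hold GAANNTTC and 0.466% hold the run on either strand. Tex12 was the only one of the 10 genes with any of these letters, in 13 windows for 10 genes. In Syce1 the capitals mark AACTGNC, a MYB motif, 175 bases before the start. Windows of Hormad1, Syce2 and Sycp2 hold AACTGNC too, against 10.6% of all windows, and Syce2 and Sycp2 were not called. In Hormad1 the match, 46 bases before the start on the other strand, also spells AACNGTC, found in 6.64% of all windows. The STRA8 motif CNCCTCAG was found for Hormad2 and Syce2 (6.42% of all windows), and the CRE letters TGACGTCA for none of the 10 (1.55%). Such matches describe letters in these windows and do not show binding.

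Neither of the 2 lateral element genes was called. Sycp2, which encodes the larger lateral element protein, stood at 6546 and 8760 in controls 1 and 2, and at 6319 and 5614 in knockouts 1 and 3. Both knockouts were below both controls, but knockout 1 lay close to control 1, and the controls differed from each other by 0.42 on the log2 scale. The log2 fold change of Sycp2 was -0.35 (95% interval -0.64 to -0.05), and it was not called (limma Benjamini-Hochberg adjusted p = 0.106). It was called without control 1 (log2 fold change -0.56, adjusted p = 0.0327), and its value without control 2 was -0.14. Sycp3, the core lateral element gene and the usual stain for meiotic axes, stood at 3109 and 3209 in controls 1 and 2, 3079 in knockout 1 and 2505 in knockout 3. The low value was knockout 3 alone, since knockout 1 lay -0.04 from the control mean on the log2 scale. The Sycp3 log2 fold change was -0.19 (-0.42 to 0.05, adjusted p = 0.262). The ratio of Sycp2 to Sycp3 within a library was 2.11 and 2.73 in the controls and 2.05 and 2.24 in the knockouts, so the groups overlapped.

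Sycp1, whose product forms the transverse filaments, was not called. It stood at 7879 and 9919 in controls 1 and 2, and at 9216 and 6931 in knockouts 1 and 3. The groups overlapped, with the knockouts on either side of control 1. The log2 fold change of Sycp1 was -0.15 (-0.47 to 0.18, limma Benjamini-Hochberg adjusted p = 0.543), an interval of 0.72 to 1.14 times control. Its direction turned without control 2 and without knockout 3. The ratio of Sycp1 to Sycp3 was 2.53 and 3.09 in the controls and 2.99 and 2.77 in the knockouts.

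Of the 4 central element genes, Syce1 and Tex12 fell, and Syce2 and Syce3 were not called. Syce1, which links SYCP1 to the rest of the central element, stood at 2144 and 2945 in controls 1 and 2, and at 1428 and 1240 in knockouts 1 and 3. Both knockouts were well below both controls, and on the log2 scale the gap between the groups was larger than the spread within either, while in counts the 2 controls lay farther apart than the gap. Mean Syce1 was 2544 ± 567 in the controls and 1334 ± 133 in the knockouts (SD, n = 2), so that Syce1 fell by 0.92 on the log2 scale (SE 0.15, limma Benjamini-Hochberg adjusted p = 0.00378). Of all genes tested, 9.3% had a lower log2 fold change. Leaving out 1 library at a time gave values between -1.15 (without control 1) and -0.69 (without control 2).

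Tex12, a small coiled-coil protein that assembles with SYCE2 into the central element's fibres, stood at 1109 and 1190 in the controls and at 874 and 838 in the knockouts. The replicates of each group lay close together and the groups did not overlap. Mean Tex12 was 1150 ± 57.1 in the controls and 856 ± 25.4 in the knockouts (SD, n = 2), a log2 change of -0.42 (SE 0.10, limma Benjamini-Hochberg adjusted p = 0.0183). Syce2, the partner of Tex12, stood at 1865 and 1708 in the controls and at 2280 and 1858 in the knockouts. Knockout 3 lay at the level of control 1 and knockout 1 above both controls, so the groups overlapped. The log2 fold change of Syce2 was 0.21 (-0.05 to 0.46, adjusted p = 0.250). Syce3, which recruits the other central element proteins to SYCP1, stood at 879 and 943 in the controls and at 928 and 770 in the knockouts. Its log2 fold change was -0.11 (-0.38 to 0.16, adjusted p = 0.588), with overlapping groups. For Syce3 that interval is 0.77 to 1.12 times control.

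Ratios within a library do not depend on how libraries are scaled to each other. The ratio of Syce1 to Syce2 was 1.15 and 1.72 in controls 1 and 2, and 0.626 and 0.667 in knockouts 1 and 3. As counts, not per length, Syce1 thus exceeded Syce2 in both controls and was below it in both knockouts. The ratio of Syce2 to Tex12 was 1.68 and 1.44 in the controls and 2.61 and 2.22 in the knockouts, without overlap. Of single genes tested, 31.9% had both knockouts below both controls and 29.8% above, and no such share was computed for ratios. The log2 value of Syce1 minus the mean of Syce2, Syce3 and Tex12 was 0.81 in control 1, 1.24 in control 2 and 0.22 in both knockouts. Its difference between groups was -0.81. The exact two-sided permutation test gave p = 0.333, the smallest that 2 libraries against 2 allow, so this design cannot pass a threshold of 0.05. Without control 2 the difference was -0.59.

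**Figure D2:**
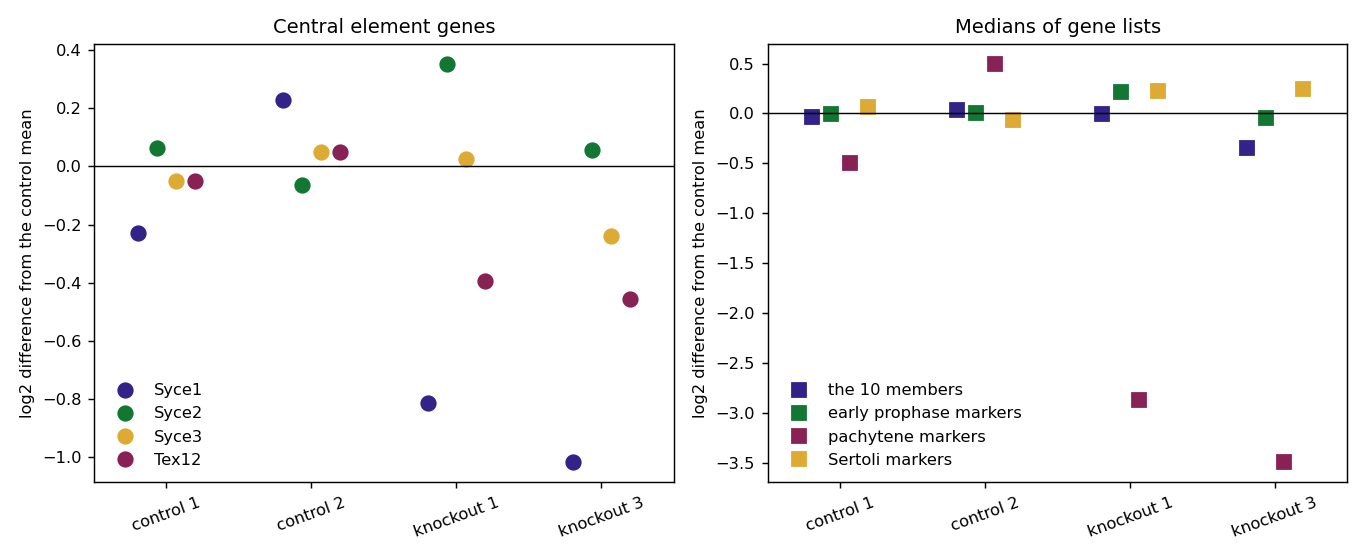
Log2 difference of each library from the control mean, for the 4 central element genes (left) and for the medians of the 10 genes and of 3 marker lists (right), with the libraries along the horizontal axis. Syce1 lies at -0.81 and -1.02 in the knockouts while Syce2 lies at 0.35 and 0.06, and the pachytene median lies at -2.87 and -3.50.

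Of the 2 HORMA domain genes of the axis, Hormad1 fell and Hormad2 was not called, and the difference between them was not tested. Hormad1, needed for break formation and for the pairing checkpoint, stood at 5712 and 5796 in the controls and at 4617 and 3944 in the knockouts. The controls agreed closely and both knockouts lay below them. Mean Hormad1 was 5754 ± 59.8 in the controls and 4281 ± 476 in the knockouts (SD, n = 2), a log2 change of -0.43 (SE 0.09, limma Benjamini-Hochberg adjusted p = 0.0109). Hormad2, which recruits the kinase ATR to unsynapsed axes, stood at 936 and 972 in the controls and at 994 and 880 in the knockouts. These groups overlapped, and the log2 fold change of Hormad2 was -0.03 (-0.26 to 0.21, adjusted p = 0.888). The ratio of Hormad1 to Hormad2 was 6.10 and 5.96 in the controls and 4.64 and 4.48 in the knockouts. The groups did not overlap. No share without overlap was computed for ratios, while for single genes tested it was 31.9% (knockouts lower) and 29.8% (knockouts higher). Trip13, which removes both proteins from the axis, stood at 843 and 755 in the controls and at 909 and 951 in the knockouts. Both knockouts lay above both controls, but the log2 fold change of 0.22 (-0.02 to 0.46) was not called (adjusted p = 0.192). The ratio of Hormad1 to Trip13 was 6.78 and 7.68 in the controls and 5.08 and 4.15 in the knockouts.

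**Figure D3:**
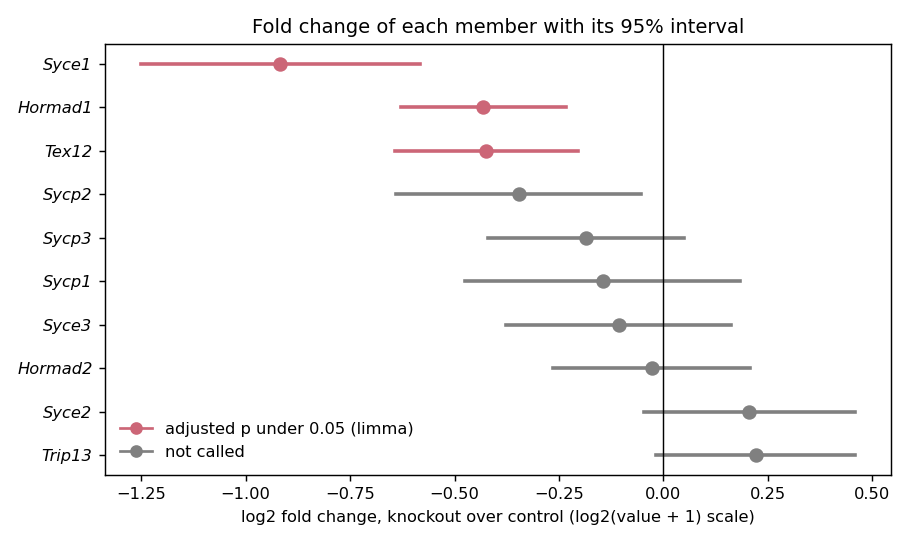
Log2 fold change of knockout over control for each gene (points) with its 95% interval (bars), from limma on log2(value + 1). Red marks an adjusted p under 0.05, reached by Syce1, Hormad1 and Tex12, while the intervals of Sycp1, Sycp3, Syce2, Syce3, Hormad2 and Trip13 include 0.

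Levels of different genes were compared as normalised counts per kilobase of exon, with the union of annotated exons as length. On that scale Hormad1 was the highest of the 10 genes in the controls, at 3328 ± 34.6 (SD, n = 2), above Sycp1 at 2503 ± 406 and Sycp3 at 2499 ± 55.7, which did not differ beyond their spread. Next came Syce1 at 1743 ± 388 and Syce3 at 1648 ± 81.4, which overlapped, then Sycp2 at 1283 ± 262 and Tex12 at 1131 ± 56.2, which also overlapped. Syce2 followed at 908 ± 56.7, Hormad2 at 349 ± 9.36 and Trip13 at 230 ± 17.9, each below the whole range of the gene before it. In the knockouts Syce1 stood seventh, at 914 ± 91.4 per kilobase, among Syce2, Sycp2 and Tex12, whose levels ran from 842 to 1051. The top 3 there, Hormad1 at 2476 ± 275, Sycp1 at 2270 ± 454 and Sycp3 at 2209 ± 321, overlapped with their neighbours. Hormad2 and Trip13 were the lowest of the 10 in both groups.

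Libraries of the same group also differed in these genes. Control 2 was above control 1 in 8 of the 10 (median log2 difference 0.08), and knockout 3 was below knockout 1 in 9 of the 10 (median -0.22), with Trip13 the exception. Over all genes tested the same medians were 0.02 and -0.02, and the shares of all genes that differed in these directions were not computed. In a list of 15 early prophase markers all 15 were lower in knockout 3 than in knockout 1, with a median of -0.24. The summed level of that list was 42326 and 44199 in the controls, 40573 in knockout 1 and 34823 in knockout 3. Of these markers 3 fell and none rose by limma, while the median log2 fold change was 0.14, with 9 positive and 6 negative. Rec8, Smc1b, Stag3 and Mei4 stand both in that list and among the partner genes described further on. Libraries were also scaled to the summed reads of that list, in which abundant markers weigh most. The sum stood at 87.1% of control while the median log2 fold change of the list was positive. The results of this scaling thus rest on the use of the sum. With it, the median over all genes was 0.22. Only Syce1 of the 10 genes then remained lower, and Syce2 became higher (limma Benjamini-Hochberg adjusted p = 0.0469). Over all 17480 genes tested, that scaling gave 9.39% lower and 1925 genes higher. On that scale the log2 fold changes of Hormad1 and Tex12 were -0.23 and -0.22 (limma adjusted p = 0.253 and 0.353), beside 0.22 over all genes. In the main fit they were -0.43 and -0.42, beside a median of 0.01 over all genes.

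Among markers of other stages, all 16 of a pachytene list fell, and their median log2 fold change was -3.18. Its summed level was 67658 and 102269 in controls 1 and 2, and 24285 and 19371 in knockouts 1 and 3. Syce1, Sycp2, Sycp3, Tex12 and Hormad1 had the same order of libraries. The share of all genes with that order was not computed, while 31.9% of them had both knockouts below both controls. Spermatogonial markers fell in 2 and rose in 4 of 13, with a median of 0.21 and a summed level of 41680 to 43157 in the controls and 38192 to 40055 in the knockouts. Sertoli cell markers rose in 4 of 14, with a median of 0.23 and a summed level of 113759 to 120570 in the controls and 134099 to 142549 in the knockouts. Scaling to the Sertoli list gave -0.22 as the median over all genes. Then 5 of the 10 genes were lower (Sycp2, Sycp3, Syce1, Tex12 and Hormad1), as were 24.9% of all genes tested. The log2 fold changes of Syce2 and Trip13 on that scale were -0.03 and -0.02. Of the lists for Leydig, myoid and stromal, macrophage, endothelial and spermatid cells none had a gene called by limma, and at an unadjusted p under 0.05 only 1 Leydig gene was lower. The median log2 fold changes of these 5 lists were -0.22, 0.06, 0.11, 0.19 and -0.14. Their summed levels were 3222 to 6177 in the controls and 3092 to 4457 in the knockouts for Leydig cells, 20901 to 21298 and 20657 to 23429 for myoid and stromal cells, 1455 to 1573 and 1500 to 1805 for macrophages, 1094 to 1236 and 1219 to 1436 for endothelium, and 203 to 247 and 182 to 199 for spermatids, of whose 10 markers 3 passed the filter. The 3 epididymal markers in the table summed to between 0 and 5.95 in a library. The part of these shifts in the values of the 10 genes was not tested.

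**Figure D4:**
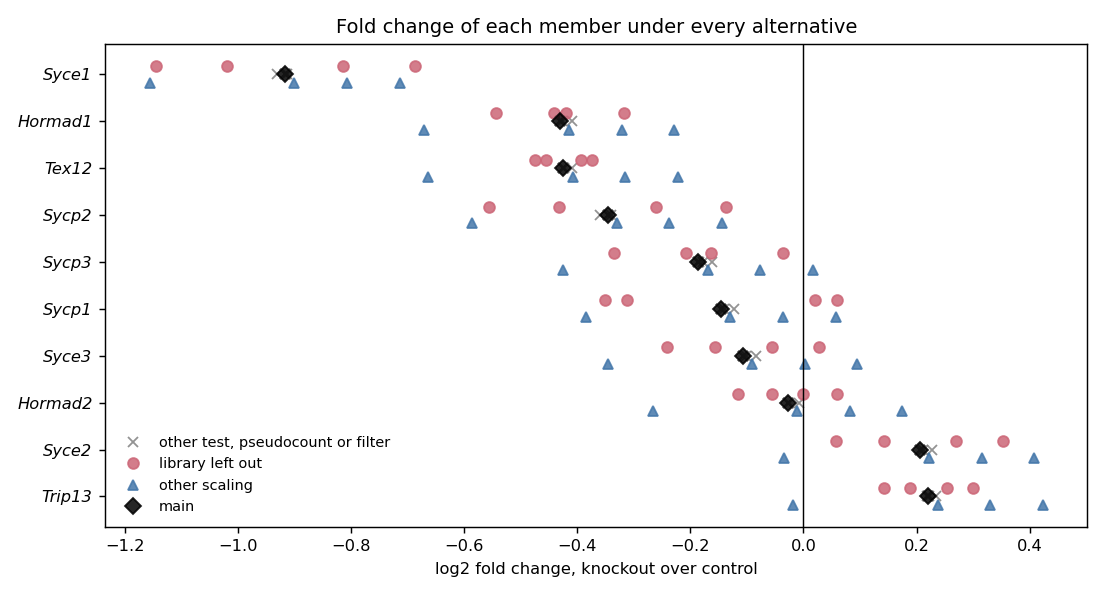
Log2 fold change of each gene in the main fit (black diamonds), with 1 library left out (red circles), with other scalings (blue triangles) and with other tests, pseudocounts or filters (grey crosses). Syce1, Hormad1, Tex12 and Sycp2 lie below 0 in every setting, and each of the other 6 crosses 0 in at least 1.

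Other genes that act with the synaptonemal complex were taken from a list of 35, of which 34 were in the table and all 34 were tested. Of these 9 fell and 1 rose, with a median log2 fold change of -0.16, beside 13.5% and 3.28% of all genes. The central element gene Six6os1, listed under the symbol 4930447C04Rik, stood at 1593 and 1691 in the controls and at 1876 and 1809 in the knockouts. Both knockouts were above both controls, but the log2 fold change of 4930447C04Rik was 0.17 (-0.02 to 0.36, limma Benjamini-Hochberg adjusted p = 0.214). The largest fall was in Psma8, a testis proteasome subunit needed for turnover of synaptonemal complex proteins. Psma8 stood at 4668 and 4726 in the controls and at 1805 and 1475 in the knockouts, a log2 fold change of -1.52 (SE 0.10, adjusted p = 0.000109). None of the other 5 genes of stability and disassembly (Fkbp6, Skp1, Plk1, Cdk1 and Ccnb1) was called.

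Among the HORMA domain proteins outside the axis and their TRIP13 adaptor, 1 of 3 fell. Mad2l2, a HORMA protein of DNA repair, stood at 1253 and 1956 in the controls and at 673 and 591 in the knockouts, a log2 fold change of -1.31 (SE 0.19, limma Benjamini-Hochberg adjusted p = 0.00232). Mad2l1, the spindle checkpoint HORMA protein, had a log2 fold change of -0.03, and Mad2l1bp, the adaptor that brings HORMA proteins to TRIP13, of -0.27, neither called. The 4 break factors that act with HORMAD1 (Iho1, Mei4, Rec114 and Ankrd31) had values between -0.27 and 0.37 and no limma call, with 1 (Ankrd31) lower at an unadjusted p under 0.05.

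Crossover factors that load onto the complex fell in 4 of 10. Mlh3, of the crossover endonuclease, stood at 1408 and 1654 in the controls and at 863 and 778 in the knockouts. The log2 fold change was -0.90 for Mlh3, -0.70 for Ccnb1ip1, the ubiquitin ligase HEI10, -0.58 for Msh4, of the MutS gamma complex, and -0.42 for the helicase gene Hfm1. Msh5, the partner of Msh4, had a value of 0.25 and was not called. Of 5 telomere attachment genes, Terb1 (-0.59) and Kash5 (-0.54) fell, and all 5 had both knockouts below both controls, as had 31.9% of all genes tested. Of 5 axis cohesin genes, Stag3 fell (-0.37) and Smc3, shared with mitotic cohesin, rose (0.25). Smc3 stood at 3326 and 3267 in the controls and at 4000 and 3864 in the knockouts, and its value was 0.01 under Sertoli marker scaling. Calls held without each library in turn for Psma8, Mad2l2 and Mlh3. Those of Stag3 and Hfm1 were lost without control 2 or knockout 3, those of Ccnb1ip1, Msh4, Terb1 and Kash5 without either control or knockout 3, and that of Smc3 without any 1 library (limma Benjamini-Hochberg adjusted p from 0.0562 for Kash5 to 0.336 for Terb1).

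**Figure D5:**
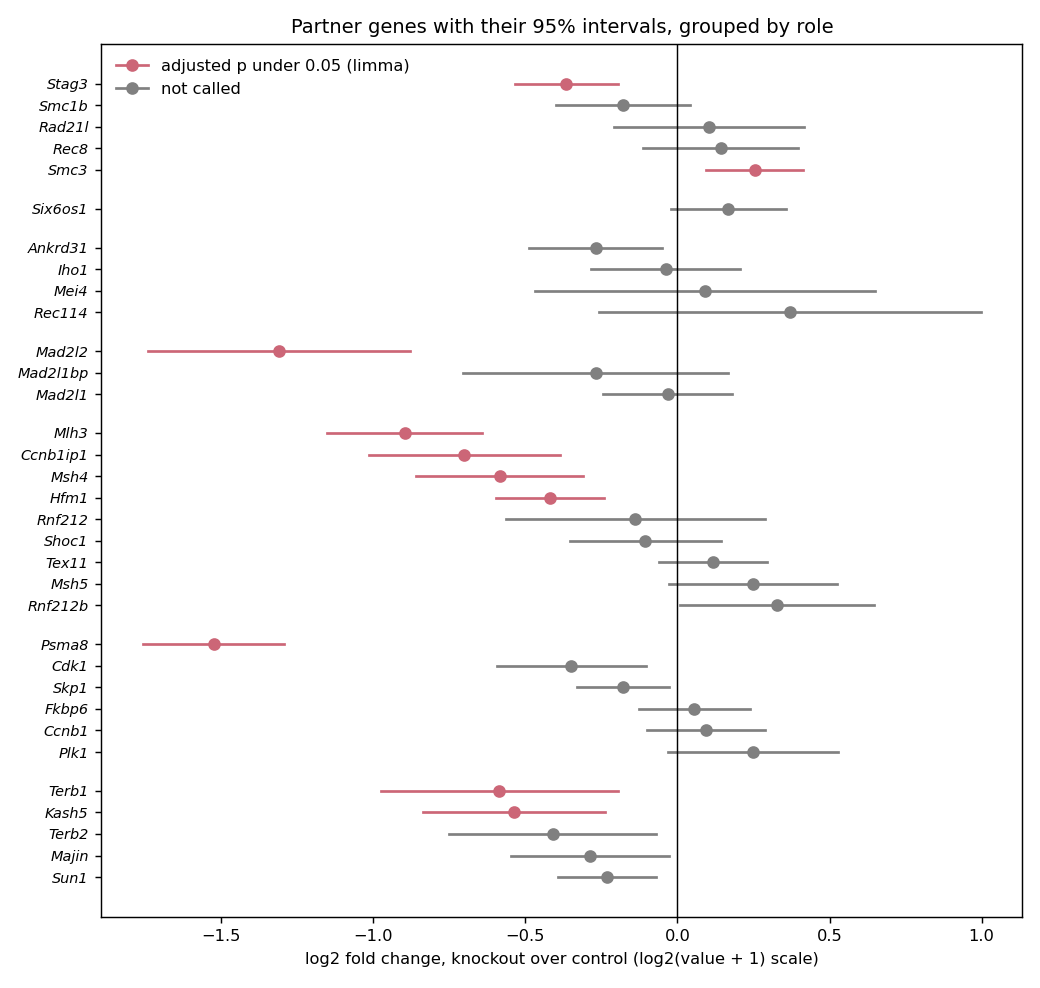
Log2 fold change (points) with its 95% interval (bars) for the partner genes reported here, grouped by role from cohesin at the top to telomere attachment at the bottom. Red marks an adjusted p under 0.05: Psma8 at -1.52 and Mad2l2 at -1.31 lie farthest from 0, and Smc3 at 0.25 is the only one above 0.

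The 5 named genes whose profile over the 4 libraries was most like that of Syce1, by the Euclidean distance between log2 profiles centred on their own means, were Tcfl5, Slx4, Hagh, Pomt1 and Dynlt1a, at distances of 0.0495 to 0.0693. They were drawn from 11357 genes with a mean of at least 100. Tcfl5, a transcription factor of spermatocytes, stood at 2720 and 3839 in controls 1 and 2, and at 1776 and 1562 in knockouts 1 and 3. With 4 points, in which control 2 is highest and knockout 3 lowest, such likeness is a description only. The value of Dynlt1a is uncertain because near-identical copies exist.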

How the data were processed

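Per the submitters' processing notes, the tools were DESeq2, featureCounts, Bowtie2 and cutadapt and the build was mm39. The sources used here do not state the settings, the strand use or the annotation. Deposited signal values are a gene's read count over 1 size factor per library, per the file headers and the values: in each library 100% of values were whole multiples of the smallest, within 1e-06. In control 2 and knockout 1 the size factor is close to 1, so for these the recovery of whole reads rests on this test alone, and count tests serve only as alternatives. The authors' deposited table also holds log2 fold changes, a test statistic score and p-values.

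The main test was limma (version 3.58.1, R 4.3.3) with a mean-variance trend on log2(value + 1), which understates changes of low genes, over genes with a mean of at least 10. Variances drew on 6.3 prior and 2 residual degrees of freedom. Alternatives were edgeR 4.0.16 and DESeq2 1.42.0 on recovered reads, 4 scalings, pseudocounts of 0.5 and 5, 2 filters, no trend and leaving out each library. All 3 tools were tested on simulated data. Exon lengths came from GENCODE M21 and promoters from RefSeq, both GRCm38; all 10 genes matched. In the partner list, 1 gene is counted but not reported here. Genes were named by rule: the 10, Hsf5, called partner genes with Six6os1, and 5 genes nearest to Syce1; any other name was picked with its value in view. The 10 genes and all lists were chosen with earlier results of these data known.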

Additional observations from a re-analysis of the deposited data

How the results depend on the processing

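Counts of calls moved with the setting. Over all genes, 2366 fell and 573 rose. The numbers were 4361 and 60 with Sertoli marker scaling, 815 and 37 without a filter, and 40 and 0 without the mean-variance trend (1456 higher at an unadjusted p under 0.05 by limma, while edgeR called 517 and DESeq2 458). Rises numbered 1925 with early prophase marker scaling and 1511 with library totals. Falls were 80.5% of calls, against 46.0%, 57.0% and 98.6% with early prophase, library total and Sertoli scaling, where the median of all genes was 0.22, 0.12 and -0.22. Leaving out 1 library gave 889 to 2096 falls and 31 to 337 rises.

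Of the 10 genes, 3 were lower, 5 with Sertoli scaling, 1 with early prophase scaling, 0 without a filter and 0 without the trend (3 at an unadjusted p under 0.05 by limma in both, and 3 by edgeR and 4 by DESeq2 adjusted), and 1 to 3 without a library: 1 without control 2 or knockout 3, and 2 without knockout 1. Syce1 was called in 13 of 15 alternatives, with values from -1.16 to -0.69; Hormad1 in 9 and Tex12 in 8. The number higher was 1 with early prophase scaling. Their median log2 fold change was -0.41 with Sertoli scaling, 0.037 (reversed) with early prophase scaling, -0.34 without knockout 1 and -0.00487 without knockout 3. The reversal rests on the summed reads of the early prophase list, whose median log2 fold change was positive. Partner genes lower numbered 16 with Sertoli scaling, 3 with early prophase scaling, 2 without a filter, 0 without the trend (9 unadjusted by limma; edgeR 8, DESeq2 9), and 3 to 9 without a library. The 1 partner gene higher was lost (0) with Sertoli scaling, without a filter, without the trend and without any 1 library (0 to 2 unadjusted by limma; edgeR and DESeq2 1). Hsf5 kept its value of -0.69 but not its limma call without a filter or the trend, and stood at -0.84 to -0.53 without a library. Syce1 minus the other central element genes ranged from -1.02 to -0.59 without a library. The cause of these changes was not tested. No paired analysis was possible because the analysed columns of the groups share only replicate number 1. The 10 genes had 752 reads or more in every library, so precision is limited by the 2 libraries per group.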

Other observations

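Relatives of SYCP2 and SYCP3 were measured as well. The X-linked Xlr genes encode proteins with a domain like that of SYCP3, and 8 of them passed the filter. All 8 had a positive log2 fold change, from 0.21 for Xlr4a to 0.61 for Xlr3b, as had 9032 of all 17480 genes tested. In 7 of the 8 both knockouts lay above both controls, as in 29.8% of all genes tested, but none was called by limma (1 was higher at an unadjusted p under 0.05; Benjamini-Hochberg adjusted p from 0.0570 for Xlr3b). Together with Sycp2l they summed to 1258 and 1128 normalised reads in the controls and to 1590 and 1427 in the knockouts. Values of Xlr genes are uncertain, since near-identical copies share reads. Sycp2l, the SYCP2 paralog known from oocytes, had a mean of 9.29 in the controls and 4.03 in the knockouts, under the filter on low values.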
